A study of Mus musculus with 16 samples.

Results

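The 7 genes listed as interstitial progenitor transcription factors were *Nr2f1*, *Nr2f2*, *Tcf21*, *Maf*, *Lhx9*, *Gli3os* and *Osr1*, a list of names drawn up with earlier results of these data known. Of these, 6 had a row among the 30451 genes of the table, and *Gli3os*, named for the strand opposite *Gli3*, had none and is given no value. They were measured in single-cell RNA-sequencing data from dissociated whole testes of mice at postnatal day 2 (P2), in which each captured mRNA is counted once near its 3′ end through a unique molecular identifier (UMI). The study compared wild-type (WT) testes with testes in which the RNA helicase gene *Ddx5* was deleted from germ cells, to learn what *Ddx5* does in the neonatal germ line. Of the 16 labelled samples, 8 were WT and 8 were *Ddx5* conditional knockout (cKO), made from floxed *Ddx5* alleles and the *Mvh*-Cre transgene, which is driven by the germ cell gene *Mvh*. The knockouts came from *Ddx5*+/- males and *Ddx5* flox/flox females, and Cre is driven in germ cells, not in the somatic cells described here. The strain, the number of animals and any pooling are not given in the sources used here. An *Oct4*-GFP transgene that marks germ cells was also used, and the labels do not say which of these animals carried it. Barcodes carried no sample number, so each genotype counts as 1 library, without replicate error, and no p-value was computed.

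The interstitium of the neonatal testis holds mesenchymal stromal cells, fetal Leydig cells that make androgens, the smooth-muscle-like peritubular myoid cells around the cords, and macrophages. The stromal cells include progenitors that give rise to steroidogenic and other interstitial cells. *Nr2f1* and *Nr2f2* encode the orphan nuclear receptors COUP-TFI and COUP-TFII, and *Nr2f2* is widely used as a marker of interstitial progenitors and is needed for the adult Leydig lineage. *Tcf21* is a basic helix-loop-helix factor of mesenchymal progenitors, *Maf* is a large basic leucine zipper factor of stromal cells and macrophages, *Lhx9* is a LIM-homeodomain factor needed to form the gonad, and *Osr1* is a zinc-finger factor of the intermediate mesoderm.

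In GENCODE M21 on the GRCm38 build the 6 genes lie on separate chromosomes, and each is protein-coding. *Nr2f2* spans chr7:70351944-70366735, *Nr2f1* chr13:78188973-78199757, *Tcf21* chr10:22817281-22820174, *Maf* chr8:115682942-115707794 and *Lhx9* chr1:138825186-138848577, all on the minus strand, while *Osr1* spans chr12:9570116-9581500 on the plus strand. A gene on the opposite strand overlaps 5 of the 6. The noncoding gene *B130024G19Rik* shares 1826 bases with *Nr2f2*, *A830082K12Rik* 1741 with *Nr2f1*, *Gm10824* 2894 with *Tcf21*, *Gm15655* 2156 with *Maf* and *1700022H16Rik* 470 with *Osr1*. Upstream sequence is shown for *Tcf21* and *Lhx9*, because these genes stand for the 2 distributions described below, one shared by stroma and myoid cells and one lower in myoid cells. Each stretch is RefSeq promoter sequence of GRCm38.p6 upstream of the annotated start, on the minus strand, without bases that GENCODE M21 counts as exon, and capitals mark the letters CANNTG.

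*Tcf21*, chr10:22820175-22820393, 219 bases that end 31 bases before the start and lie within the span of *Gm10824*: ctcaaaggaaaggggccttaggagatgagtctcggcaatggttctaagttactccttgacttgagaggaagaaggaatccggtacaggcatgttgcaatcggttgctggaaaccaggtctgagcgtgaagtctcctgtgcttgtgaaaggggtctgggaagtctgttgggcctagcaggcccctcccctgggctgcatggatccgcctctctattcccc

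*Lhx9*, chr1:138842458-138842694, 237 bases that end 13 bases before a start inside the gene's span: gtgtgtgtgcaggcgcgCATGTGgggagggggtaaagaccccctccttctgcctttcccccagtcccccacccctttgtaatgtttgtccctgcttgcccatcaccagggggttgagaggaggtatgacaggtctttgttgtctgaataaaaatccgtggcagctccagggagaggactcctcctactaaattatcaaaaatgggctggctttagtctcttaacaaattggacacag

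4 short motifs were searched on both strands: CANNTG, the core recognised by basic helix-loop-helix factors such as *Tcf21*, AGGTCA, recognised by nuclear receptors, TAATTA, recognised by homeodomains, and the TATA box letters TATAAA. The *Lhx9* stretch held 1 match, the CATGTG shown in capitals, and the *Tcf21* stretch held none of the 4. Of 32851 promoters cut to the same stretch, 64.4% held CANNTG in the window of *Lhx9* and 62% in that of *Tcf21*, so a match is common. AGGTCA was in 13.4% and 12.5%, TAATTA in 4.75% and 4.52%, and TATAAA in 12% and 9.92% of them. No upstream sequence is shown for the other 4 genes.

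The table held 84263163 UMIs of 6763 WT barcodes and 67558106 of 5423 barcodes of the library labelled *Ddx5* knockout. A barcode was kept when 2000 or more genes were found and no more than 10% of its UMIs were mitochondrial, which left 6329 and 4950 cells with medians of 11170 and 11668.5 UMIs. *Ddx5*, the targeted gene, had a level in germ cells that went against the label. It stood at 1230 counts per 1000000 UMIs (CPM) in 82 WT cells and 1736 CPM in 12 cells of the library labelled *Ddx5* knockout. That library is therefore named by its label (cKO-labelled) throughout. The study itself reported lower *Ddx5* mRNA in sorted knockout gonocytes at P2 by single-cell qRT-PCR. UMIs counted near the 3′ end do not show whether part of the gene was deleted, and this was not tested. In the somatic classes *Ddx5* was lower in the cKO-labelled library, at 610 and 550 CPM in stroma and 688 and 606 CPM in myoid cells. Leydig cells had 682 and 600 CPM and Sertoli cells 939 and 887 CPM. The transcript of the Cre transgene had 0 UMIs in the WT library and 20 in the other. The labels place the WT libraries in lanes 2 and 3 and the cKO libraries in lanes 3 and 4, and since barcodes carry no sample number, lane and label cannot be told apart here, and 12 barcode sequences occurred under both. A single barcode can hold RNA of more than 1 cell, and Scrublet, a doublet caller, marked 4.49% of the WT and 5.98% of the cKO-labelled cells.

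Cells were classed by UMIs of marker genes, so each class is a range of cells and not a pure type. Stroma was gated on at least 1 UMI of the platelet-derived growth factor receptor gene *Pdgfra* with at most 2 of the Sertoli hormone gene *Amh*, Leydig cells on at least 20 UMIs of 3 steroidogenic genes (*Cyp11a1*, *Cyp17a1*, *Hsd3b1*), myoid cells on at least 5 of the actin gene *Acta2* and 2 of the myosin gene *Myh11*, Sertoli cells on at least 3 of *Amh*, macrophages on at least 5 of the complement genes *C1qa*, *C1qb* and *C1qc*, and germ cells on at least 5 of *Dazl*, *Ddx4* and *Mael*. A cell that passed the stroma gate and another gate went to the other class, which moved 89.4% of the cells of the myoid gate out of stroma. Stroma then held 2857 WT and 2491 cKO-labelled cells (45.1% and 50.3% of the cells kept, median 9488 and 9596 UMIs). Sertoli cells, the nurse cells of the cords and the class that should lack a stromal gene, held 2211 and 1599 (13626 and 15671), myoid cells 723 and 500 (11066 and 11663), Leydig cells 165 and 128 (14612 and 17020.5), macrophages 25 and 18 (16064 and 20409) and germ cells 82 and 12 (32397 and 34528). In stroma 319 and 245 cells rested on a single *Pdgfra* UMI. The stromal marker list (*Pdgfra*, *Dcn*, *Dlk1*, *Ogn*, *Col1a1* and *Tcf21*, the last a member here) summed to 8178 and 8034 CPM in stroma against 515 and 800 CPM in Sertoli cells, and a Leydig list that includes the gate genes to 17.6 and 20.4 CPM in stroma against 24630 and 25989 CPM in Leydig cells. Values below are pooled UMIs of a class as CPM, always WT first and cKO-labelled second, and 95% intervals cover counting error only.

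Of the 6 genes, 4 were highest in stroma in both libraries (*Nr2f2*, *Nr2f1*, *Lhx9* and *Osr1*), *Tcf21* was as high in myoid cells as in stroma, and *Maf* was highest in macrophages. For *Maf*, and for *Tcf21* in WT, the top class was thus not the stroma from which the set takes its name. The gene set was also found outside stroma: the peritubular myoid class carried *Nr2f2* and *Tcf21* at nearly the stromal level, and Leydig cells kept *Nr2f2* at a lower level. The order of each gene over the classes is given here, and classes called apart had intervals that did not overlap in either library.

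**Figure D1:**
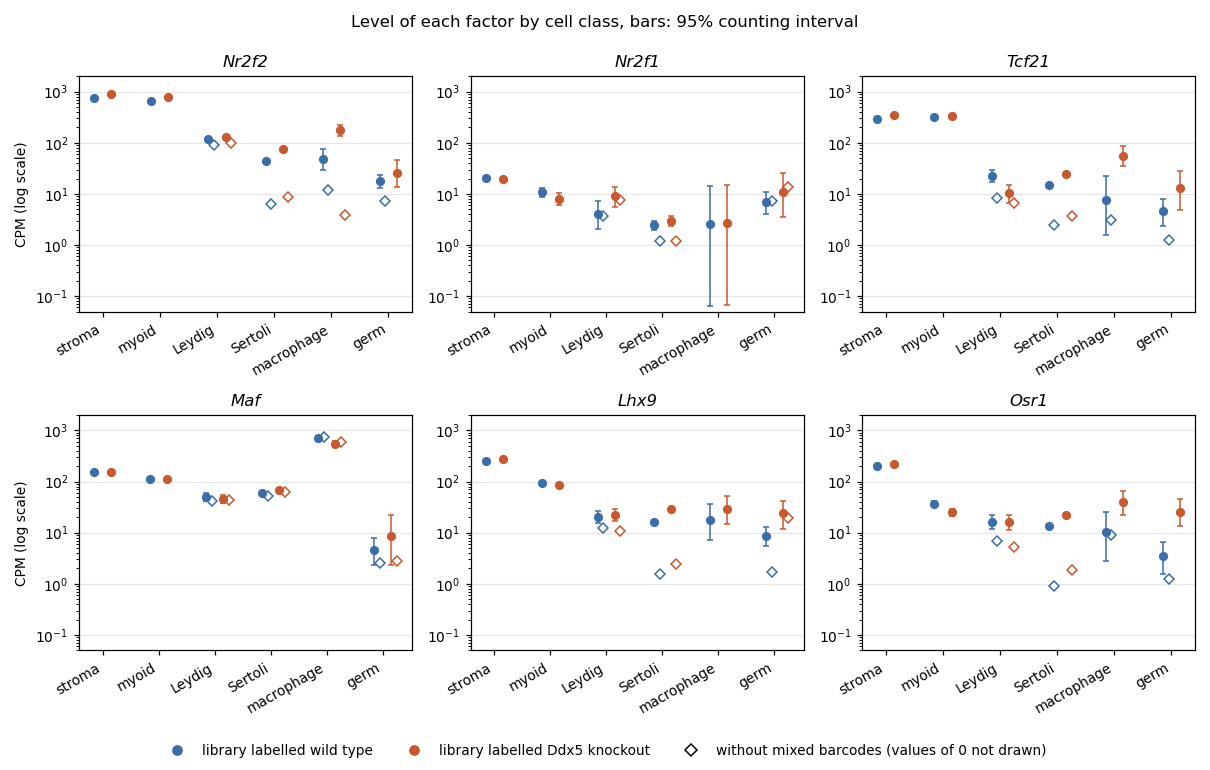
Level of each of the 6 genes (log axis, CPM) in the gated classes of cells, WT and cKO-labelled libraries side by side; bars around points are exact Poisson 95% intervals, diamonds leave out barcodes with at least 20 UMIs of 4 stromal markers, and values of 0 are not drawn. *Nr2f2*, *Tcf21*, *Lhx9*, *Osr1* and *Nr2f1* are high in stroma, *Nr2f2* and *Tcf21* are as visible in myoid cells, and *Maf* peaks in macrophages.

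*Nr2f2* stood at 748 CPM (738 to 758) in WT stroma and 890 CPM (878 to 901) in cKO-labelled stroma. Myoid cells followed at 665 and 802 CPM and Leydig cells at 119 and 129 CPM, and these 3 classes were apart from each other in both libraries. Macrophages had 48.1 and 174 CPM, Sertoli cells 44.0 and 75.5 CPM and germ cells 17.9 and 25.9 CPM. Nearly every stromal cell had the transcript: with each cell thinned to 5000 UMIs, *Nr2f2* was found in 95.3% and 97.2% of stromal cells, 94% and 96.2% of myoid cells, 33.9% and 34.7% of Leydig cells and 8.62% and 12.4% of Sertoli cells. Without thinning the shares were 99.2% and 99.6% in stroma against 14.4% and 18.8% in Sertoli cells. A stromal cell with the transcript held a median of 7 and 8 *Nr2f2* UMIs.

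*Nr2f1*, the other COUP-TF gene, also had its highest level in stroma, at 20.5 CPM (18.9 to 22.2) and 19.5 CPM (17.8 to 21.3), apart from 10.8 and 8.04 CPM in myoid cells. It was a gene of single UMIs: 601 and 505 UMIs were spread over stroma so that 8.88% and 8.95% of thinned stromal cells had one, against 0.912% and 1.25% of Sertoli cells. Leydig cells had 11 and 22 UMIs in all (4.11 and 9.02 CPM), with a ratio of 2.19 (1.02 to 5.01) between the libraries.

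*Tcf21* was shared by stroma and the myoid class. It stood at 297 CPM (291 to 304) and 354 CPM (346 to 361) in stroma and at 316 and 335 CPM in myoid cells, so that myoid cells were slightly higher in WT and slightly lower in the cKO-labelled library. The ratio of stroma over myoid was 0.940 (0.901 to 0.981) in WT and 1.06 (1.01 to 1.11) in the other. Leydig cells had 22.8 and 10.2 CPM and Sertoli cells 14.7 and 24.4 CPM. In thinned cells *Tcf21* was found in 72.6% and 77.8% of stromal, 76.3% and 77.0% of myoid, 7.27% and 3.94% of Leydig and 4.20% and 6.39% of Sertoli cells.

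*Lhx9* and *Osr1* separated stroma from myoid cells. *Lhx9* stood at 254 CPM (249 to 260) and 276 CPM (269 to 282) in stroma against 95 and 85.6 CPM in myoid cells, a stroma-over-myoid ratio of 2.68 (2.49 to 2.88) and 3.22 (2.95 to 3.52). *Osr1* stood at 202 CPM (197 to 207) and 221 CPM (215 to 226) in stroma against 36.7 and 25.2 CPM in myoid cells, a ratio of 5.50 (4.92 to 6.17) and 8.76 (7.50 to 10.3). Both genes fell further in Leydig cells, to 20.5 and 22.5 CPM for *Lhx9* and 16.4 and 16.0 CPM for *Osr1*. In thinned cells *Lhx9* was found in 64.6% and 66.0% of stromal cells and 4.20% and 7.40% of Sertoli cells, and *Osr1* in 55.4% and 58.3% of stromal, 11.4% and 10.0% of myoid and 3.74% and 5.58% of Sertoli cells.

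*Maf* had another order. Macrophages led with 706 CPM (626 to 794) and 541 CPM (469 to 621), on 25 and 18 cells, followed by stroma with 155 CPM in each library, myoid cells with 114 and 112 CPM, Sertoli cells with 59.1 and 68.6 CPM and Leydig cells with 50.4 and 45.5 CPM. Macrophages, stroma, myoid cells and Sertoli cells were apart from one another in that order in both libraries, and Sertoli and Leydig cells were not. *Maf* was found in 87.5% and 83.3% of thinned macrophages, 48.9% and 49.6% of stromal cells and 24.6% and 27.1% of Sertoli cells.

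A call was made between classes where log2 of CPM plus 10 differed by at least 2-fold in both libraries. Stroma was higher than Sertoli cells for 6 of 6 genes, where 5.45% of 18342 genes tested were higher, with ratios of 17.0 and 11.8 for *Nr2f2*, 20.2 and 14.5 for *Tcf21*, 15.4 and 9.67 for *Lhx9*, 15.1 and 9.78 for *Osr1*, 8.49 and 6.47 for *Nr2f1*, and 2.62 and 2.26 for *Maf*. Against Leydig cells 5 of 6 were called (all but *Nr2f1*), beside 6.59% of all genes, with ratios of 6.29 and 6.89 for *Nr2f2* and 13.0 and 34.5 for *Tcf21*. Against myoid cells 2 of 6 were called, *Lhx9* and *Osr1*, beside 1.03% of all genes. With a pseudocount of 50 CPM, *Nr2f1* and *Maf* fell below 2-fold between stroma and Sertoli cells. The list was chosen as stromal, so these counts describe the choice and are not independent of it.

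Most of the *Nr2f2*, *Tcf21*, *Lhx9* and *Osr1* UMIs of Sertoli barcodes sat in a small number of barcodes that also carried stromal markers, and those of *Maf* did not. Barcodes of a non-stromal class with at least 20 UMIs of *Dcn*, *Dlk1*, *Ogn* and *Col1a1*, 4 matrix and signalling genes of stroma, are called mixed here, a limit set after the data were seen. They made up 173 of 2211 Sertoli barcodes in WT (7.82%, exact interval 6.74% to 9.02%) and 185 of 1599 in the cKO-labelled library (11.6%, 10.0% to 13.2%). Mixed Sertoli barcodes were deep, with medians of 23203 and 26251 UMIs against 13167.5 and 14965.5 in the rest. Scrublet marked 94.2% and 89.7% of them as doublets, against 0.589% and 1.56% of the rest. The share marked was lower in the few mixed barcodes of other classes, 44.4% and 60% in Leydig cells and 50% and 0% in both macrophages and germ cells.

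Of the *Nr2f2* UMIs of the Sertoli class, 87.1% and 90.4% were in mixed barcodes. The share was 85.3% and 87.7% for *Tcf21*, 91.5% and 93.0% for *Lhx9*, 93.9% and 93.2% for *Osr1*, and 55.8% and 67.9% for *Nr2f1*. *Maf* differed, with 21.9% and 26.2%. In the other Sertoli barcodes *Nr2f2* stood at 6.43 and 8.85 CPM, *Tcf21* at 2.45 and 3.66, *Lhx9* at 1.59 and 2.44 and *Osr1* at 0.923 and 1.87, each at most 1.04% of its stromal level, while *Nr2f1* kept 1.21 and 1.18 CPM, 5.90% and 6.04% of its own. Stroma was then 116 and 101 times the Sertoli level for *Nr2f2*, 121 and 96.6 times for *Tcf21*, 160 and 113 times for *Lhx9*, 218 and 118 times for *Osr1*, and 17.0 and 16.6 times for *Nr2f1*. The barcodes left out were picked by their stromal UMIs, and stroma was not filtered. A rise of these ratios was thus built in for genes found together with those markers. *Maf* remained at 52.3 and 61.6 CPM in those Sertoli barcodes, 33.8% and 39.8% of stroma, and 48.7% and 55.3% of them had a *Maf* UMI.

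**Figure D2:**
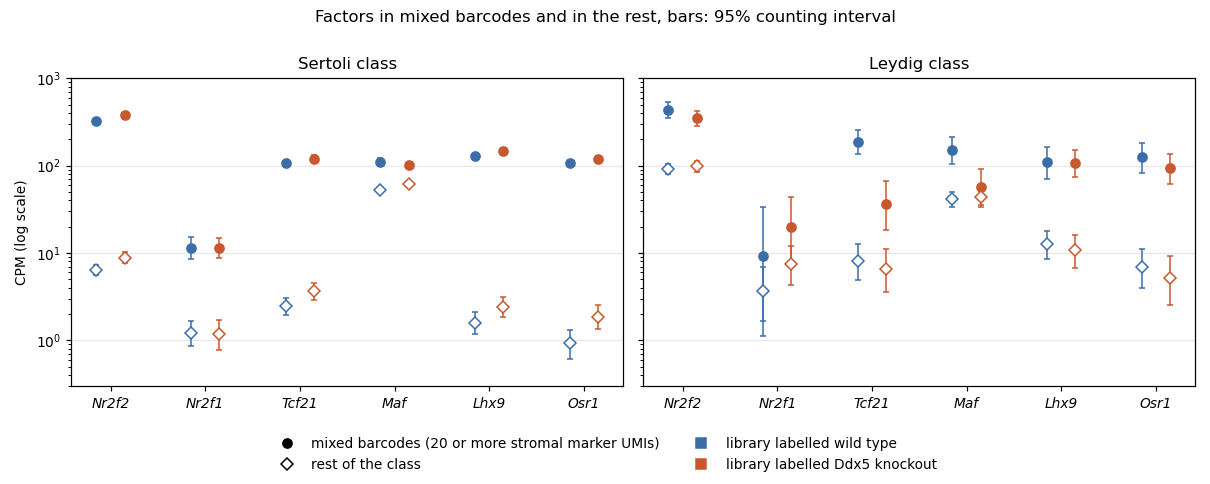
Levels (log axis, CPM) of the 6 genes in Sertoli and Leydig barcodes, split into mixed barcodes, which hold at least 20 UMIs of 4 stromal markers, and the rest. Bars are exact Poisson 95% intervals. In Sertoli barcodes *Nr2f2*, *Tcf21*, *Lhx9* and *Osr1* drop from over 100 CPM in mixed barcodes to under 10 CPM in the rest while *Maf* stays at 52.3 and 61.6 CPM, and in the rest of the Leydig barcodes *Nr2f2* stays at 91.1 and 98.1 CPM.

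Leydig cells held *Nr2f2* apart from mixed barcodes. Only 9 of 165 and 10 of 128 Leydig barcodes were mixed, and in the rest *Nr2f2* stood at 91.1 CPM (79.5 to 104) and 98.1 CPM (85.2 to 112), found in 66.7% and 71.2% of cells without thinning. This was 12.2% and 11% of the stromal level, where *Tcf21* kept 2.74% and 1.85%, *Lhx9* 4.95% and 3.90% and *Osr1* 3.43% and 2.33% of theirs. *Maf* kept 41.5 and 43.9 CPM in those Leydig barcodes, 26.8% and 28.4% of stroma. Leydig values depended on the limit on mitochondrial UMIs, which made up 6.57% and 6.69% of all UMIs in this class: a limit of 5% left 33 WT Leydig barcodes, 8 of them mixed, and 19 in the other library, 1 of them mixed. The WT log2 difference of stroma over Leydig cells then went from 2.56 to 1.36 for *Nr2f2* and from 1.45 to 0.51 for *Maf*, below the 2-fold limit. In macrophages 2 and 4 barcodes were mixed, and without them *Maf* stood at 737 and 605 CPM while *Nr2f2* had 4 UMIs in 23 cells and 1 UMI in 14 cells. *Lhx9* and *Nr2f1* had 0 UMIs in these macrophages, which allows up to 11.2 CPM in WT and 14.2 CPM in the other library (upper bounds of the exact Poisson intervals).

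The genes on the opposite strands differed in how far they followed their partners. *B130024G19Rik*, which starts within *Nr2f2* and runs the other way, stood at 146 and 174 CPM in stroma, 157 and 192 CPM in myoid cells, and 15.9 and 16.8 CPM in the Leydig barcodes that were not mixed. In the Sertoli barcodes that were not mixed it fell to 0.859 and 1.13 CPM, so it was found in the classes that held *Nr2f2*, with a level in myoid cells that was not below that in stroma. *Gm10824*, which contains *Tcf21*, had 4.44 and 4.13 CPM in stroma, 4.29 and 4.95 CPM in myoid cells and 0 and 1 UMIs in those Sertoli barcodes. *A830082K12Rik*, beside *Nr2f1*, had 4.27 and 4.59 CPM in stroma against 0.790 and 0.618 CPM in myoid cells. *Gm15655* in *Maf* had 17 and 42 UMIs in stroma and *1700022H16Rik* beside *Osr1* had 1 and 1. These genes were looked up after the levels were seen. Whether the counting was by strand is not given in the sources used here, and reads of such a pair can then not be fully told apart.

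Within stroma, *Lhx9*, *Nr2f1* and *Osr1* differed between subsets of cells more than the other 3 genes did. Stromal cells were split by at least 3 UMIs of *Lum*, *Dpt* and *Aspn*, which encode extracellular matrix proteins, and by at least 3 UMIs of *Tbata*, *Cyp26b1* and *Smoc2*, of which *Cyp26b1* degrades retinoic acid. Both sets were present in 1140 and 1145 cells (39.9% and 46.0%), the *Tbata* set alone in 1380 and 1057 (48.3% and 42.4%), the *Lum* set alone in 134 and 131, and neither in 203 and 158. *Lhx9* and *Nr2f1* were higher in cells with the *Lum* set, and *Nr2f2*, *Tcf21* and *Maf* differed little over the 4 subsets.

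**Figure D3:**
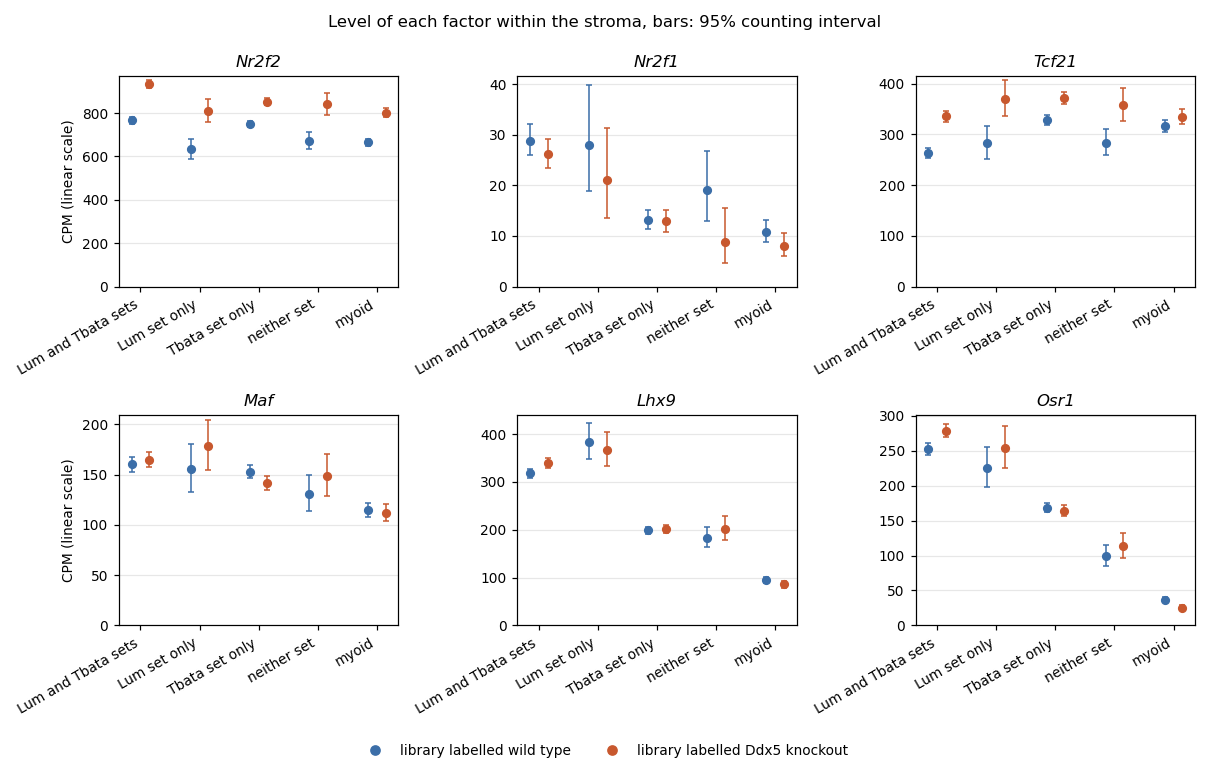
Level (CPM) of each gene in the 4 subsets of stromal cells, split by the *Lum* and the *Tbata* marker sets, for the WT and cKO-labelled libraries. The myoid class, which is not a stromal subset, is drawn beside them. Bars are exact Poisson 95% intervals. *Lhx9* and *Nr2f1* stand higher in the subsets with the *Lum* set, and *Osr1* is lowest in cells with neither set.

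*Lhx9* stood at 384 and 367 CPM in cells with the *Lum* set alone, 318 and 340 CPM in cells with both, 199 and 202 CPM in cells with the *Tbata* set alone and 184 and 202 CPM in cells with neither. The ratio of the *Lum* set alone over the *Tbata* set alone was 1.93 (1.73 to 2.14) and 1.82 (1.64 to 2.02). It was the 1 gene of the 6 past 1.5-fold in both libraries, beside 2.11% of 14626 genes tested. *Nr2f1* stood at 27.9 and 21 CPM against 13.1 and 12.9 CPM, a ratio of 2.13 (1.40 to 3.14) and 1.63 (1.01 to 2.53), which stayed below the fold in the cKO-labelled library with the pseudocount of 10 CPM. *Osr1* had ratios of 1.34 (1.17 to 1.53) and 1.55 (1.36 to 1.75), *Maf* 1.02 and 1.26, *Nr2f2* 0.846 and 0.949, and *Tcf21* 0.863 and 0.995.

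*Osr1* was highest in cells with both sets and lowest in cells with neither. It stood at 253 and 278 CPM in cells with both, 226 and 254 CPM with the *Lum* set alone, 168 and 164 CPM with the *Tbata* set alone and 99.3 and 113 CPM with neither. Cells with both were 2.55 (2.18 to 2.99) and 2.46 (2.09 to 2.91) times those with neither, and *Osr1* was the 1 gene of 6 past 2-fold there, beside 0.686% of all genes. For *Lhx9* the same ratio was 1.73 and 1.68. The cells with neither set carried myoid markers, as given next, and *Osr1* was low in myoid cells, at 36.7 and 25.2 CPM. The part of such cells in the *Osr1* ratio was not tested.

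Cells with neither set carried myoid markers: *Acta2* stood at 2293 and 1973 CPM there, against 3953 and 3683 CPM in the myoid class. The myoid list (*Acta2*, *Myh11*, *Tagln*, *Cnn1*) summed to 2802 and 2334 CPM in these cells against 706 and 646 CPM in stroma as a whole. When stromal cells with 5 or more *Acta2* UMIs were left out, the log2 difference of *Lhx9* between the *Lum* set alone and the *Tbata* set alone went from 0.91 and 0.83 to 0.65 and 0.44, and no member then passed 1.5-fold in both libraries. For *Nr2f2* and *Tcf21*, which the myoid class also carried, the 4 subsets lay between 633 and 767 CPM and between 263 and 328 CPM in WT, and between 809 and 935 CPM and between 336 and 372 CPM in the cKO-labelled library.

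Most stromal cells held several of the 6 transcripts at once. In cells thinned to 5000 UMIs, a mean of 3.46 and 3.58 of the 6 genes was found per stromal cell, 2.63 and 2.56 per myoid cell, 0.855 and 0.701 per Leydig cell and 0.463 and 0.601 per Sertoli cell. None was found in 0.215% and 0.246% of stromal cells and in 67.3% and 62.5% of Sertoli cells. The largest group of stromal cells held 4 of the 6, with 31.9% and 35.8%.

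**Figure D4:**
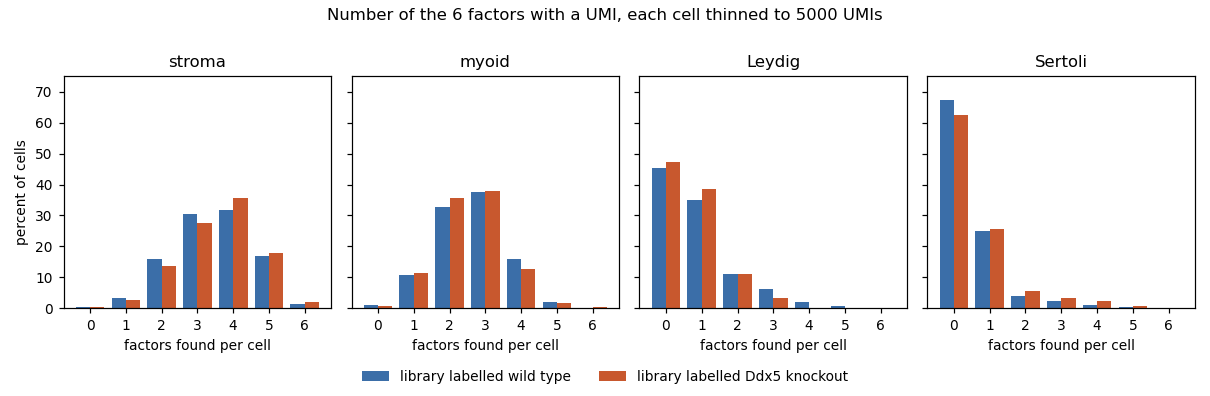
Percent of cells (bars from 0) by the number of the 6 genes found, from 0 to 6, in stroma, myoid, Leydig and Sertoli cells thinned to 5000 UMIs, in the WT and cKO-labelled libraries. Stroma peaks at 4 genes, with 31.9% and 35.8% of cells, and Sertoli cells at 0, with 67.3% and 62.5%.

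Pairs of genes were also counted together in the thinned stromal cells, as a description of sparse counts. *Lhx9* and *Osr1* were found together in 39.5% and 43.4% of cells, where the product of their shares was 35.8% and 38.5%, a ratio of 1.1 and 1.13. *Nr2f1* with *Lhx9* had ratios of 1.23 and 1.15 and *Nr2f1* with *Osr1* 1.11 and 1.16. These were the 3 of 15 pairs at 1.1 or more in both libraries, and *Tcf21* with *Lhx9* stood at 1.0 and 1.01. Without thinning 1 pair reached that limit.

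Over 14 values, from 7 populations in each of the 2 libraries that the populations share, *Nr2f2* and *Tcf21* followed each other with a Pearson r of 0.964 of log2 (CPM + 10), *Lhx9* and *Osr1* with 0.953, *Tcf21* and *Lhx9* with 0.921, *Nr2f2* and *Lhx9* with 0.891, *Nr2f1* and *Lhx9* with 0.848 and *Tcf21* and *Osr1* with 0.826. The r of *Maf* with the others lay between -0.04 and 0.47. The values of the non-stromal classes include their mixed barcodes, whose part in these r values was not tested. *Ogn*, *Dlk1* and *Dcn*, named below, are among the genes that define mixed barcodes. Of 16687 genes, those most like *Nr2f2* were *Itm2a* (0.988), the antisense neighbour *B130024G19Rik* (0.987), *P3h3*, *Tshz2* (0.984) and *Gpc3* (0.983). Those most like *Tcf21* were *Dnm3os* (0.990), *Bgn*, *Islr* (both 0.989), *Ltbp4* and *Hic1* (0.988), and those most like *Lhx9* were *Dpysl3* (0.989), *Emp2*, *Ogn* (0.988), *Fat4* and *Nlgn1* (0.981). For *Osr1* they were *Dlk1* (0.970), *A830012C17Rik*, *Sbspon*, *Sostdc1* and *Dcn* (0.961), for *Nr2f1* *4833422C13Rik* (0.982), *D330041H03Rik* (0.973), *Mirg* (0.939), *Stbd1* and *8430419K02Rik*, and for *Maf* *Canx* (0.984), *Sirt2*, *Tmsb4x*, *Plxnb2* and *Rragc* (0.964). The list for *Maf* rests on germ cells and macrophages: without them 0 of its 5 genes stayed in the top 20, at ranks 310 to 2468, against 4 of 5 for *Nr2f2*, *Nr2f1*, *Tcf21* and *Lhx9* and 2 of 5 for *Osr1*.

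The relatives of the members did not share one distribution. Of 28 listed relatives, which include 3 GLI genes for the sake of *Gli3os* although no measured member is a GLI gene, 27 had a row, and of 20 tested 3 were higher and 3 lower in stroma than in Sertoli cells, where 5.45% of all genes were higher and 4.84% lower. GLI genes made up 2 of the 3 that were higher. *Osr2*, the paralog of *Osr1*, stood at 236 and 262 CPM in stroma but at 344 and 416 CPM in myoid cells and 297 and 250 CPM in Leydig cells, where *Osr1* was low. *Gli3*, on the strand opposite *Gli3os*, stood at 25.9 and 26.3 CPM in stroma, 28.1 and 30.6 CPM in myoid cells and 14.1 and 13.4 CPM in Sertoli cells. *Gli1*, a target of Hedgehog signalling, was higher in stroma than in Sertoli cells by 2.29 and 2.10 on the log2 scale and than in Leydig cells by 2.30 and 2.35. In macrophages *Gli3* had 0 and 1 UMIs. *Mafa* and *Scx* were lower in stroma than in Sertoli cells by log2 values of -3.55 and -3.51 and of -3.80 and -3.80.

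Of 34 other gonadal and mesenchymal transcription factors 32 were tested between stroma and Sertoli cells, and 13 were higher and 7 lower in stroma, with a median log2 difference of 0.38 against 0.00 for all genes, of which 5.45% were higher and 4.84% lower. *Ebf1*, a mesenchymal factor, was higher by 3.74 and 3.25, while the Sertoli factors *Sox9* (-3.50 and -3.65) and *Wt1* (-3.53 and -3.52) were lower. Against Leydig cells 9 of 30 were higher and 4 lower, beside 6.59% and 5.66% of all genes, the latter 4 including *Gata6* (-3.59 and -3.16) and *Nr5a1* (-2.98 and -3.44), the steroidogenic factor. Against myoid cells 3 of 30 were higher, *Ebf1* (1.78 and 1.74), *Klf4* (1.76 and 1.71) and *Twist1* (1.35 and 1.27), and 3 were lower, including *Heyl* (-1.85 and -1.73), beside 1.03% and 0.716% of all genes. Between the *Lum* set alone and the *Tbata* set alone 6 of 29 were higher and 1 lower, beside 2.11% and 1.63% of all genes, with *Wt1* at 1.62 and 1.49 and *Gata6* at 1.43 and 1.14. Of 7 Leydig function genes tested outside the gate, 6 were lower in stroma than in Leydig cells, beside 5.66% of all genes, with a median of -4.38.

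Proliferation went with small differences. Stromal cells with at least 3 UMIs of *Mki67*, *Top2a* and *Ube2c*, genes of dividing cells, numbered 571 and 454, and cells with none of them 1913 and 1721. The ratio of the former over the latter was 1.13 in both libraries for *Nr2f2*, 1.07 in both for *Tcf21*, 0.816 and 0.869 for *Maf*, 0.791 and 0.867 for *Osr1*, 0.936 and 1.01 for *Lhx9* and 1.01 in both for *Nr2f1*. Of the 6 genes 0 were lower or higher in cycling cells past 1.5-fold, beside 0.697% of all genes that were lower and 4.81% that were higher.

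Between the labels the levels in stroma moved by less than 1.5-fold for each of the 6 genes, where 0.212% of 16037 genes passed that fold in either direction. *Nr2f2* was 1.19 times (1.17 to 1.21) and *Tcf21* 1.19 times (1.16 to 1.23) the WT level in the cKO-labelled stroma. *Osr1* stood at 1.09 times (1.05 to 1.14), *Lhx9* at 1.08 times (1.05 to 1.12), *Maf* at 1.0 times (0.958 to 1.04) and *Nr2f1* at 0.949 times (0.842 to 1.07). The middle 90% of all genes lay between log2 ratios of -0.14 and 0.14, and 99% of genes had a lower ratio than *Nr2f2* and 98.9% a lower one than *Tcf21*. The median of the 6 genes was 0.12 against 0.00 for all genes, and the log2 ratio over the alternatives run stayed between 0.24 and 0.26 for *Nr2f2* and between 0.22 and 0.26 for *Tcf21*. Of the other transcription factors 0 of 30 tested and of the relatives 0 of 17 passed 1.5-fold between the labels in stroma. The list of 6 macrophage markers summed to 4.20 CPM in WT stroma and 48.5 CPM in cKO-labelled stroma, of which *Lyz2*, a lysozyme gene of macrophages and granulocytes, made up 0.888 and 39.9 CPM. *Maf*, the member highest in macrophages, stood at 155 CPM in stroma of each library, a level at which its ratio cannot show a macrophage share this small. The part of macrophage RNA in the stromal ratios was not tested. With 1 library a label, the spread between animals of one genotype is unknown, and a difference of this size cannot be told apart from a difference between libraries.

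The shift of *Nr2f2* and *Tcf21* was in each stromal subset. The ratio of the cKO-labelled over the WT library was 1.22 for *Nr2f2* and 1.27 (1.22 to 1.33) for *Tcf21* in cells with both sets, 1.28 and 1.31 with the *Lum* set alone, 1.14 and 1.13 (1.09 to 1.18) with the *Tbata* set alone, and 1.25 and 1.26 with neither. The share of stromal cells with both sets also differed between the libraries (39.9% and 46.0%), and ribosomal protein genes held 21.7% and 21.9% of stromal UMIs. In cells with neither set *Nr2f1* had a ratio of 0.467 (0.219 to 0.932), on 32 and 12 UMIs, the 1 of 6 past 1.5-fold there, beside 2.64% of all genes, and with a pseudocount of 50 CPM it did not pass, beside 0.162%. Markers of other cells moved with the label in this subset: the 6 macrophage markers summed to 5.35 and 325 CPM, of which *Lyz2* made up 0 and 293 CPM, and *Pax8* and *Ecrg4*, markers of rete or supporting-like cells, to 59.4 and 0.741 CPM. Their part in the ratios of this subset was not tested. *B130024G19Rik* stood at 146 and 174 CPM in the 2 libraries, beside 748 and 890 CPM for *Nr2f2*.

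In myoid cells 0 of 6 passed 1.5-fold, beside 0.322% of all genes. *Nr2f2* had a ratio of 1.21 (1.16 to 1.25) there, *Tcf21* of 1.06, and *Osr1* of 0.687 (0.566 to 0.832). In Sertoli cells 1 of 6 passed, *Nr2f2* with 1.72 (1.61 to 1.83), beside 0.474% of all genes, and *Tcf21* (1.66), *Lhx9* (1.72) and *Osr1* (1.69) stayed below the fold through the pseudocount of 10 CPM. With a pseudocount of 1 CPM 4 of 6 passed, beside 4.49% of all genes, and with 50 CPM 0 of 6, beside 0.0616%. The stromal markers moved with them in that class, *Pdgfra* by 1.68, *Dcn* by 1.79, *Col1a1* by 1.63, *Ogn* by 1.48 and *Dlk1* by 1.22, and so did the share of mixed barcodes given above. Without the mixed barcodes *Nr2f2* had a ratio of 1.38 (1.13 to 1.68) on 202 and 203 UMIs, *Tcf21* of 1.49 (1.08 to 2.06) on 77 and 84, *Lhx9* of 1.53 (1.03 to 2.29) on 50 and 56, and *Osr1* of 2.03 (1.24 to 3.37) on 29 and 43. *Maf* then had 1.18 (1.1 to 1.27), against 1.16 with all barcodes, and *Nr2f1* 0.973, against 1.25. The ratio was thus nearer 1 for *Nr2f2*, *Tcf21*, *Lhx9* and *Nr2f1* and farther from it for *Osr1* and, slightly, for *Maf*. The stromal marker *Pdgfra* then had 1.27 (0.943 to 1.71).

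**Figure D5:**
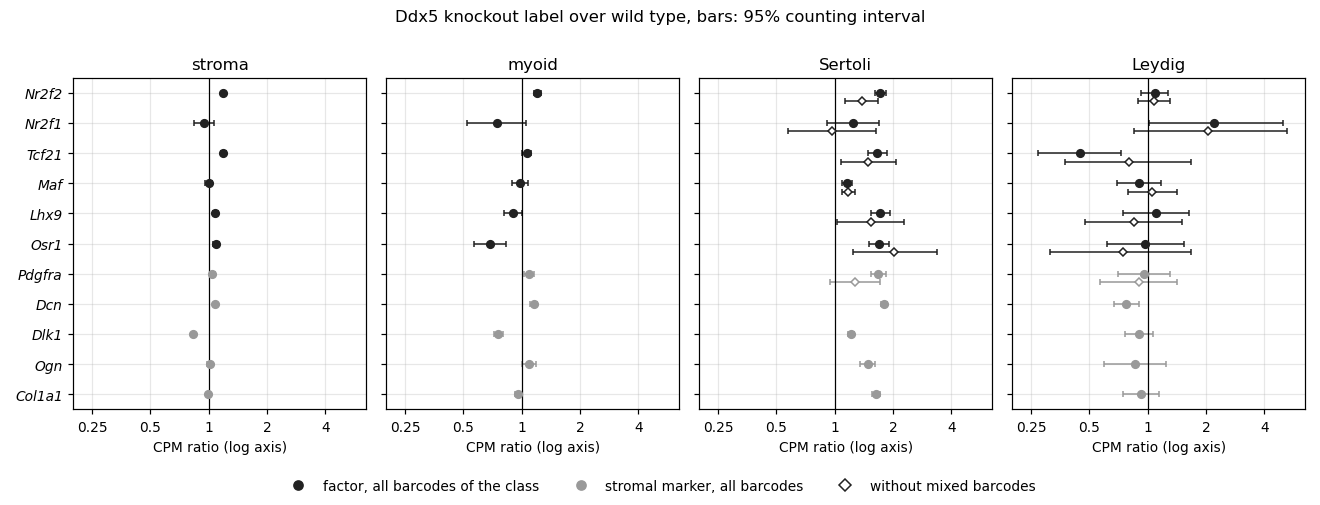
Ratio of the cKO-labelled over the WT library (log axis) for the 6 genes (black) and for stromal markers (grey) in stroma, myoid, Sertoli and Leydig cells, with exact 95% intervals for counting error; diamonds leave out mixed barcodes. In stroma the genes lie between 0.949 and 1.19, and in Sertoli cells *Nr2f2*, *Tcf21*, *Lhx9* and *Osr1* lie between 1.66 and 1.72, beside stromal markers between 1.22 and 1.79.

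In Leydig cells 1 of 6 passed, *Tcf21*, which was lower with a ratio of 0.450 (0.270 to 0.727) on 61 and 25 UMIs, beside 1.16% of all genes. Without mixed barcodes it was 0.804 (0.376 to 1.67), on 20 and 14 UMIs. With a pseudocount of 1 CPM *Nr2f1*, on 11 and 22 UMIs, also passed, in the other direction, with a ratio of 2.19 (1.02 to 5.01) and beside 8.85% of all genes, and with 50 CPM 0 of 6 passed, beside 0.121%. In macrophages 3 of the 6 had the 20 UMIs needed and 2 of these passed, *Nr2f2* (3.62) and *Tcf21* (7.41, on 3 and 21 UMIs), where 17.6% of 5018 genes passed between 25 and 18 cells. Without mixed barcodes 4 and 1 UMIs of *Nr2f2* and 1 and 0 of *Tcf21* were left. *Maf* in macrophages had a ratio of 0.767 (0.636 to 0.922), and of 0.821 (0.667 to 1.01) without mixed barcodes. In germ cells, 82 and 12 of them, 55.5% of 10795 genes passed, 1232 of them higher and 4758 lower. Of the 4 members tested *Lhx9* (2.71, on 23 and 11 UMIs) and *Osr1* (7.55, on 9 and 12 UMIs) passed, both higher. All 12 *Osr1* UMIs of the cKO-labelled germ cells were in 2 mixed barcodes, as were 4 of their 11 *Lhx9* UMIs and, in WT, 19 of 23 in 6 mixed barcodes. Stromal markers moved with them, *Ogn* by 4.68, *Dcn* by 1.69, *Pdgfra* by 1.47, *Dlk1* by 1.41 and *Col1a1* by 1.26. Doublet calls and the share of mixed barcodes moved with the label, and beyond leaving out mixed barcodes or marked doublets their part in these ratios was not tested.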

How the data were processed

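Single-cell libraries were made from P2 testes dissociated with TrypLE and captured with the Chromium Single Cell 3′ v3 kit. The authors deposited raw UMI counts per gene and barcode for both genotypes in 1 table, made with Cell Ranger (3.1.0 in the submitters' processing notes, which also name Seurat 3.1.5 and GRCm38). The annotation is not given in the sources used here. No source pairs barcode suffixes with genotypes. Suffix 3 was taken as WT because this pairing gave the cell numbers of the study's text to within 1 cell (6329 and 4950 with at least 2000 genes, 6328 and 4950 with more). The members, gene lists and gates were chosen with earlier results of these data known. Counts were summed per class and label, scaled to counts per 1000000 UMIs of that class (CPM) and compared as ratios with exact conditional binomial intervals. Log2 ratios had a pseudocount of 10 CPM, and genes with at least 20 UMIs entered a comparison. For shares of cells each cell was thinned to 5000 UMIs, which left out 97 WT and 68 cKO-labelled cells. No count model was used. The computation of the intervals was checked on simulated Poisson counts for the label comparison in stroma. These counts held no variation between cells or animals, so the check does not cover such spread. Named genes were the members, for each the 5 genes with the highest r among genes with at least 50 UMIs, and up to 4 genes of a fixed list by log2 ratio. Doublets were marked with Scrublet (scanpy 1.11.5) and kept. Python 3.11.15, NumPy 2.4.6, SciPy 1.17.1, pandas 2.3.3 and matplotlib 3.10.9 were used. Alternatives changed the filters, gates, pseudocount, scaling, thinning and doublets. Some genes of the fixed lists are not reported here.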

Additional observations from a re-analysis of the deposited data

Results flagged for a closer look

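The ratio of the cKO-labelled over the WT library pointed in opposite directions in different classes for 3 genes, with counting intervals above 1 in some classes and below 1 in others, and the difference between classes was not tested. *Tcf21* was above 1 in stroma (1.19), myoid cells (1.06), Sertoli cells (1.66) and macrophages (7.41) and below 1 in Leydig cells (0.45). *Maf* was above 1 in Sertoli cells (1.16) and below it in macrophages (0.767). *Osr1* was above 1 in stroma (1.09), Sertoli cells (1.69) and macrophages (3.97) and below it in myoid cells (0.687). In germ cells, which were not among the classes searched, it was 7.55 on 9 and 12 UMIs. Without mixed barcodes *Tcf21* in Leydig cells stood at 0.804 (0.376 to 1.67) and *Maf* in macrophages at 0.821 (0.667 to 1.01), so neither interval then lay below 1. The macrophage value of *Osr1* rests on 4 and 15 UMIs, under the minimum for a call, and without mixed barcodes 3 and 0 UMIs were left, while that of *Tcf21* rests on 3 and 21 UMIs, of which 1 and 0 were left.

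Barcodes that failed the filter, 434 in WT and 473 in the other library, entered no comparison but carried each of the 6 genes. *Nr2f2* stood at 382 and 327 CPM there, *Tcf21* at 105 and 95.6, *Maf* at 136 and 103, *Lhx9* at 112 and 82.2, *Osr1* at 71.3 and 57.1 and *Nr2f1* at 14.1 and 9.63 CPM.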

How the results depend on the processing

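No paired analysis was possible because barcodes carry no replicate number and each label is 1 library, and for the same reason no replicate could be left out. Of the log2 ratios between labels, 332 stayed within their counting interval under the alternatives run, and 22 of 360 changed sign. Among values past the fold, the 2 that changed sign were *Nr2f2* and *Tcf21* in macrophages, at -0.68 and -0.38 with mixed barcodes left out, on 23 and 14 cells. Of the ratios between classes 418 stayed and 158 moved, and of the levels 34 stayed and 26 moved. For genes past 1.5-fold between labels in stroma, the count of 34 became 246 with a pseudocount of 1 CPM and 11 with 50 CPM. For genes past 1.5-fold between the *Lum* and *Tbata* sets, the count of 1 member, beside 2.11% of all genes, became 2 with the gates taken literally (2.49%), 2 with thinned cells (2.16%), 2 with a pseudocount of 1 CPM (5.14%), and 0 without stromal cells of 5 or more *Acta2* UMIs (1.61%). For pairs found together the count of 3 became 1 without thinning. Of the 30 genes with a like pattern 18 stayed in the top 20 without germ cells and macrophages. The causes were not tested. Depth limits *Nr2f1*, with at most 22 UMIs in Leydig cells, and macrophages, with 25 and 18 cells. The alternatives with mixed barcodes or *Acta2* cells left out were chosen after seeing the data.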
